A study of Mus musculus with 18 samples.

Results

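The genes described here are the translation initiation and elongation factors of the mouse, together with the enzymes that carry their gene symbols because they act on these factors. They were chosen as every row of the deposited tables whose symbol begins with Eif or Eef followed by a digit, with pseudogene symbols left out, and 64 of the 13784 genes of each table met this rule. Cortical RNA had been compared in 18 mice aged 4 to 6 months. The groups were 4 control mice given saline, 5 control mice given lipopolysaccharide (LPS, a bacterial cell wall component that sets off innate immune signalling), 4 saline-treated mice whose astrocytes lacked the chromatin remodeller Chd8 (a conditional knockout, cKO), and 5 such cKO mice given LPS. LPS was injected into the abdomen at 5 mg/kg, and tissue was taken 72 hours later. The question was what loss of Chd8 from astrocytes changes at rest and during neuroinflammation.

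The labels name neither the promoter that drove the deletion nor the alleles of the controls, and RNA came from whole cortex, where astrocytes are one cell type among many. Since every library title mentions saline, whatever the mouse received, the genotype label was used for grouping. Values come from the authors' deposited tables of 3 comparisons, and values per library were not used here, so the depth of each library is unknown and the spread between mice is known only through each table's own test. A gene counts as having risen or fallen at a false discovery rate (FDR) below 0.05, adjusted over all 13784 genes. Each fold change is on the log2 scale and is followed by its standard error (SE), which was derived here from the deposited fold change and F statistic. Group levels, in log2 CPM (counts scaled to library size), are estimates worked out from the fold changes and mean levels, and they carry no error of their own. In whole tissue, fewer cells of a type and less RNA per cell cannot be told apart. Chd8 itself differed between cKO and control mice after LPS by 0.02 ± 0.05 (FDR = 0.901) in the authors' deposited table.

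Translation initiation brings the small ribosomal subunit, loaded by eIF2 with the initiator tRNA and held by eIF1, eIF1A, eIF3 and eIF5, to the capped end of an mRNA that eIF4E, eIF4G and eIF4A have bound and unwound. The complex scans to the start codon, eIF5B joins the large subunit, and the elongation factors eEF1A and eEF2 then deliver aminoacyl-tRNA and move the ribosome. Kinases that sense viral RNA, misfolded protein, lack of heme or lack of amino acids phosphorylate eIF2, which traps its exchange factor eIF2B and slows initiation, while eIF4E-binding proteins and the eEF2 kinase slow cap recognition and elongation. In the brain these steps are known for their part in synaptic plasticity, and mutations of eIF2B cause a white matter disease in which astrocytes are affected.

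In controls, LPS was followed by higher RNA of 3 of the 64 genes, the kinase Eif2ak2, the eIF3 subunit Eif3f and the scaffold Eif4g3, and no gene fell. That was 4.69% of the members, against 9.76% of all genes called in either direction in the authors' deposited table (6.46% rose and 3.31% fell). In cKO mice 9 members rose and 3 fell, or 18.75% of them, against 19.5% of all genes in the authors' deposited table, of which 10.9% rose and 8.52% fell. At this threshold and with the fold changes as deposited, the members' shares over both directions were at or below the background. The 9 rises in cKO mice were 14.1% of the members. The median log2 fold change of the members was 0.01 in controls and 0.03 in cKO mice, beside 0.00 in both for all genes. At an unadjusted p below 0.05, 20 members (31.2%) passed in controls, against 28.9% of all genes, and 24 (37.5%) in cKO mice, against 35.8%.

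Sizes were small. In 49 of the 64 genes (76.6%, against 60.8% of all genes) the log2 fold change stayed under 0.25 in both genotypes, whatever its sign. The largest rise was that of Eif5b in cKO mice, at 0.71 ± 0.17, and the largest fall that of Eif5a2 in the same mice, at 0.39 ± 0.07 below saline, both in the authors' deposited table. Of the 12 members called in cKO mice, 12 had the same sign in controls, as had 93.2% of the 2681 genes called in cKO mice. In controls 9 of the 12 had that sign with an FDR below 0.1 (75.0%, against 43.4% of those genes), and 2 (Eif2ak2 and Eif3f, 16.7%) rose in both genotypes, against 18.9%. The LPS responses of the genotypes correlated across the 64 genes with Pearson's r = 0.82 (0.68 across all genes). This is a description across genes, which are not independent replicates; the underlying comparisons share no library, but their genes share RNA composition, length and base content. With the trend of the fold changes on transcript GC content and length removed, 12 members rose and 2 fell in cKO mice. Over all genes the split moved from 1506 rises and 1175 falls to 1359 and 688. In that setting the members' share of calls lay above that of all genes in cKO mice.

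**Figure D1:**
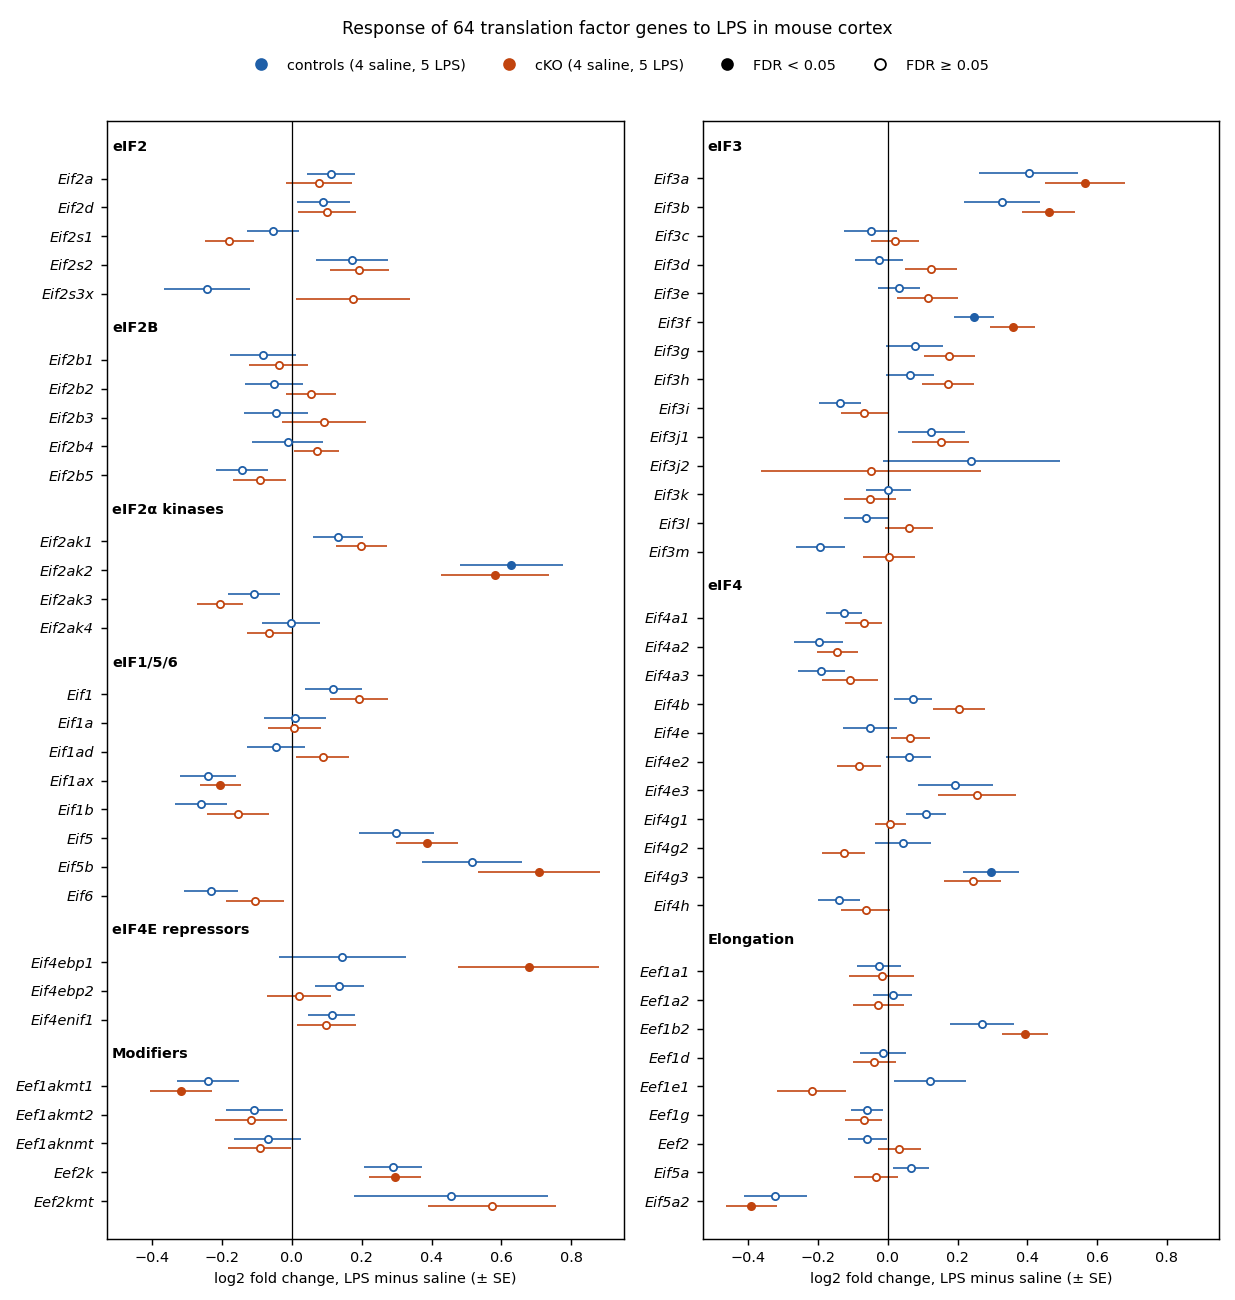
Log2 fold change after LPS (horizontal axis, LPS minus saline, with SE bars) for each of the 64 translation factor genes, grouped by role, in controls (blue) and cKO mice (orange). Filled points passed the FDR threshold of the authors' deposited tables, 3 in controls and 12 in cKO mice, and most open points lie close to 0.

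**Figure D2:**
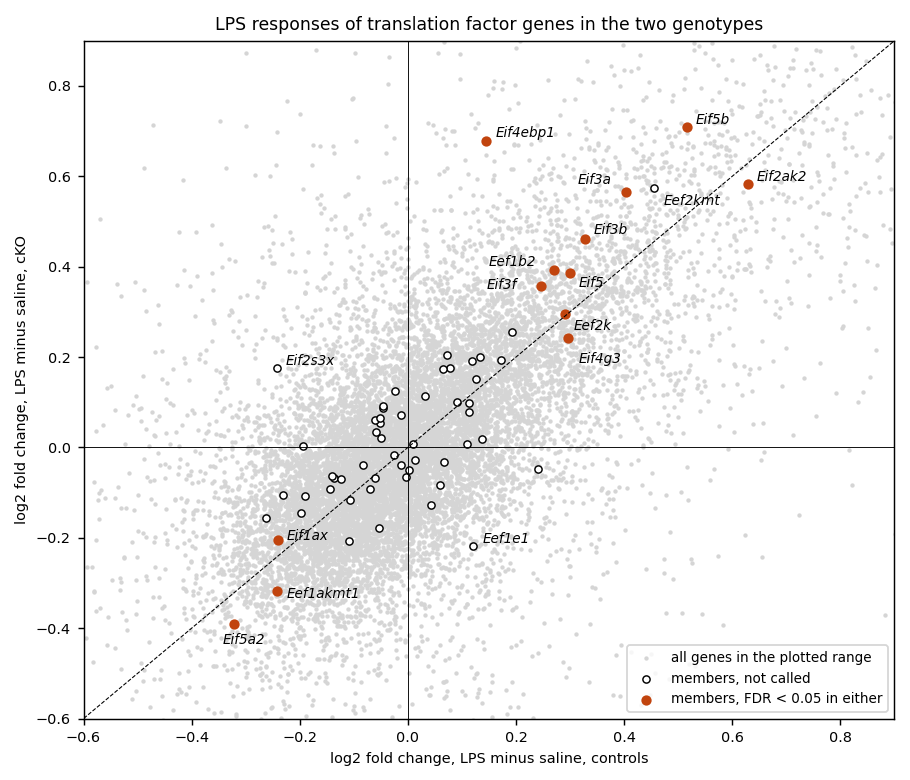
Log2 fold change after LPS in cKO mice (vertical axis) against that in controls (horizontal axis) for all genes in the plotted range (grey) and for the 64 translation factor genes (circles, orange where the FDR is below 0.05 in either genotype). The dashed line marks equal responses; the orange points lie in the upper right and lower left, and Eif4ebp1 stands farthest above the line.

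The start-site sequences of 4 genes are shown, chosen by their LPS results, and no call rests on the sequences. Eif2ak2 had the largest rise in controls and Eif5b the largest in cKO mice, Eif3f rose in both, and Eif5a2 had the largest fall. RefSeq's tables for build GRCm38.p6 gave a window for 51 of the 64 genes. The bases printed are chr17:78882543-78882672 on the minus strand for Eif2ak2, chr7:108934215-108934414 on the plus strand for Eif3f, chr1:37997810-37998009 on the plus strand for Eif5b and chr3:28781077-28781276 on the plus strand for Eif5a2. The Eif2ak2 stretch runs from 100 bases before its start to 30 bases into the transcript, and the others cover the 200 bases before the start. Capitals mark, in Eif2ak2, the core of the interferon-stimulated response element (GAAA, a pair of any bases and GAAA again), in Eif3f and Eif5a2 the E-box CACGTG, and in Eif5a2 also the ETS core CCGGAAG.
Eif2ak2: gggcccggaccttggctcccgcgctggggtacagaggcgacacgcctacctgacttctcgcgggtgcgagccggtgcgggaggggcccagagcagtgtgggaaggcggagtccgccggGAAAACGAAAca
Eif3f: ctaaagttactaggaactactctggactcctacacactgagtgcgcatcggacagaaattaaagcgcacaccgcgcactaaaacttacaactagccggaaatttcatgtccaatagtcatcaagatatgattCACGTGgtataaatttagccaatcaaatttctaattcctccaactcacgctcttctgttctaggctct
Eif5b: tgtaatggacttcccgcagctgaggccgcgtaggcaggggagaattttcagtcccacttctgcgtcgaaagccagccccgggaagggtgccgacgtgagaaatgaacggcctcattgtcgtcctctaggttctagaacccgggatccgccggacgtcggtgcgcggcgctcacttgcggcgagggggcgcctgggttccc
Eif5a2: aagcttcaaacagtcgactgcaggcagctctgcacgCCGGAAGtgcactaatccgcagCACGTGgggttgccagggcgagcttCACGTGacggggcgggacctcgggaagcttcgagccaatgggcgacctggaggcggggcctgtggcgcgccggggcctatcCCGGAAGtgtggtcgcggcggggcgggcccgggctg
None of the marked matches overlaps another, and GC boxes (GGGCGG) and the TATAAA of Eif3f are left in lower case.

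Motifs were searched on both strands in windows of 250 bases before to 50 bases after the start, after the sequences had been seen. The interferon-stimulated response element core was found in 4 of the 51 member windows (Eif2ak2, Eif2s1, Eif2s3x and Eif3a), or 7.84%, and in 3.49% of all 27025 windows. In Eif2ak2 it begins at base 19 of the transcript, counted from the start as base 1; the bases before the start count down from -1. The E-box was found in 11 member windows (21.6%, against 7.24% of all windows), at position -68 in Eif3f and at -142 and -117 in Eif5a2. The ETS core was found in 15 (29.4%, against 9.12%), among them Eif5a2 at -164 and -36, and the GC box in 37 (72.5%, against 35.9%). TATAAA was found in 4 (7.84%, against 14.2%), and TTGCATCA, an element bound by the stress-response factor ATF4, in 0, beside 0.929% of all windows. None of the motifs searched was found in the Eif5b window. The 27025 windows were not limited to the 13784 genes of the deposited tables, from which the members were drawn, so the backgrounds are unlike. Whether the members differ from other measured genes in these motifs was not tested. The hits are matches of letters and not bound sites.

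The eIF2 kinases differed among themselves. Eif2ak2 encodes PKR, a kinase that is activated by double-stranded RNA and is known as an interferon-induced gene. Its estimated level was 2.41 log2 CPM in controls after saline and 3.04 after LPS, and 2.57 and 3.15 in cKO mice. Both LPS groups thus stood above both saline groups. It rose by 0.63 ± 0.15 in controls (FDR = 0.0318) and by 0.58 ± 0.15 in cKO mice (FDR = 0.03) in the authors' deposited tables. The other kinases did not pass. Eif2ak1 (HRI, the heme-regulated kinase) had log2 fold changes of 0.13 ± 0.07 and 0.20 ± 0.07 in controls and cKO mice in the authors' deposited tables. Eif2ak3 (PERK, which senses misfolded protein in the endoplasmic reticulum) lay below saline, at -0.11 ± 0.08 and -0.21 ± 0.07 (FDR = 0.0534 in cKO mice) in the authors' deposited tables. That of cKO mice passed once the GC and length trend was taken out, at -0.23 (adjusted p = 0.0437). Eif2ak4 (GCN2, which senses uncharged tRNA) had -0.00 ± 0.08 and -0.06 ± 0.07 in the authors' deposited tables.

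The target of these kinases and its exchange factor stayed close to saline. Eif2s1, the phosphorylated alpha subunit of eIF2, had log2 fold changes of -0.05 ± 0.08 in controls and -0.18 ± 0.07 in cKO mice (FDR = 0.0978) in the authors' deposited tables. Eif2s2, the beta subunit, had 0.17 ± 0.10 and 0.19 ± 0.09 there; with the GC and length trend removed, its value in cKO mice was 0.32 (adjusted p = 0.0376). None of the 5 eIF2B subunits (Eif2b1 to Eif2b5), which recharge eIF2 with GTP, passed in either genotype. Their log2 fold changes in the authors' deposited tables ran from -0.14 to -0.01 in controls, with SE of 0.07 to 0.10, and from -0.09 to 0.09 in cKO mice, with SE of 0.06 to 0.12. Eif2a and Eif2d, which can place tRNA on the ribosome without eIF2, lay between 0.08 and 0.11 in both genotypes in the authors' deposited tables, without passing.

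Eif2s3x, the X-linked gene for the gamma subunit of eIF2, had point estimates of opposite sign in the genotypes, neither of which passed. Its estimated level was 7.65 log2 CPM in controls after saline, 7.41 in controls after LPS, 7.14 in cKO mice after saline and 7.31 in cKO mice after LPS. The saline groups lay farthest apart. The LPS response was -0.24 ± 0.12 in controls (FDR = 0.223) and 0.18 ± 0.16 in cKO mice (FDR = 0.465) in the authors' deposited tables, and the difference between these responses was 0.42 ± 0.22 (adjusted p = 0.771, difference test described with the processing). Combining the 3 deposited fold changes put cKO mice 0.46 below controls after saline, an estimate with no test, while the other 63 members lay between -0.14 and 0.14.

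Estimated levels of sex-linked transcripts differed between the groups in the same data. Xist, the X-inactivation RNA of female cells, had estimated levels of 7.47 and 7.33 log2 CPM in controls after saline and LPS, and 4.35 and 5.91 in cKO mice, the same order of groups as Eif2s3x. Xist passed in none of the authors' deposited tables (FDR = 0.938 for LPS in controls, 0.598 in cKO mice, 0.81 between genotypes after LPS). The Y-linked Ddx3y had -7.19 and 3.68 in controls after saline and LPS, and 5.87 and 5.71 in cKO mice. A level of -7.19 means that almost no Ddx3y RNA was counted in controls after saline. Its rise in controls was 10.87 ± 2.63 (FDR = 0.0351) in the authors' deposited table, the LPS comparison that supplies the control values of all members. Eif2s3x escapes X inactivation in the mouse, as do Kdm6a, Ddx3x and Kdm5c, which were looked up after its values were seen. After saline their estimated cKO-minus-control differences were -0.35 for Kdm6a, -0.32 for Ddx3x and -0.22 for Kdm5c. In controls after saline and LPS and in cKO mice after saline and LPS, Ddx3x stood at 8.26, 8.34, 7.89 and 8.27 log2 CPM. Kdm6a stood at 5.65, 5.45, 5.28 and 5.24, and Kdm5c at 6.41, 6.40, 6.19 and 6.20. Of these, Kdm5c had the same order of groups as Eif2s3x, and Ddx3x and Kdm6a did not. Such orders, that of Xist included, are of point estimates, and some steps lay within their error. The LPS responses in controls and cKO mice were -0.01 ± 0.05 and 0.01 ± 0.09 for Kdm5c in the authors' deposited tables. They were -0.20 ± 0.12 and -0.04 ± 0.18 for Kdm6a and 0.08 ± 0.12 and 0.38 ± 0.13 for Ddx3x. The labels used here give no sex, and the part of sex in the Eif2s3x values was not tested. The Y-linked partner Eif2s3y was not analysed here.

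**Figure D3:**
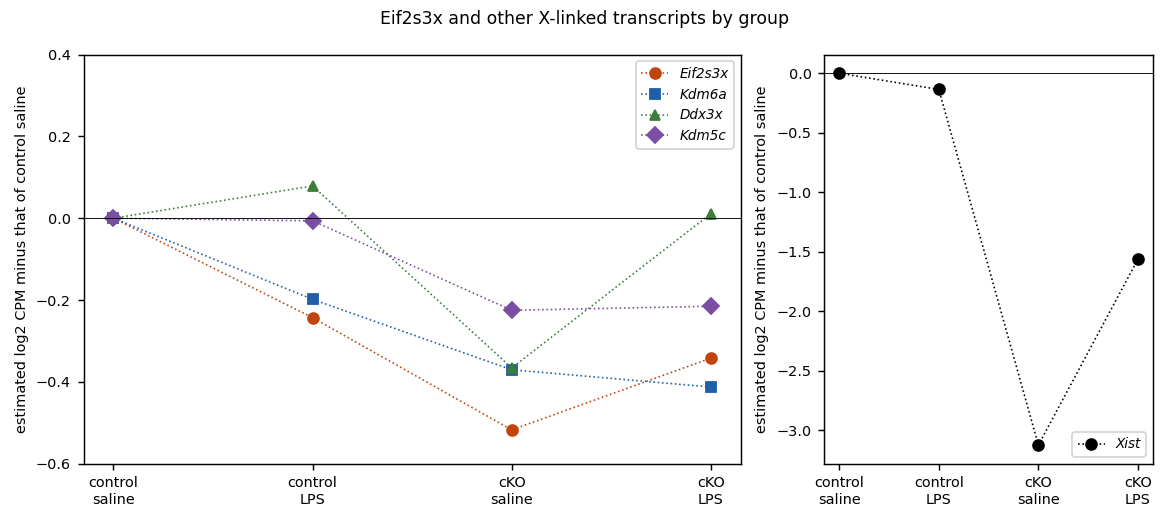
Estimated log2 CPM of Eif2s3x, Kdm6a, Ddx3x and Kdm5c (left) and of Xist (right), each minus its own level in controls given saline, in the 4 groups (horizontal axis). Points are estimates with no error bar, and the scales of the panels differ. Eif2s3x, Ddx3x, Kdm5c and Xist are lowest in cKO mice after saline, and Kdm6a in cKO mice after LPS.

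Among the 8 measured factors that find the start codon and join the subunits, 2 rose and 1 fell in cKO mice. Of all genes 10.9% rose and 8.52% fell there. Eif5b encodes the GTPase that joins the large ribosomal subunit. It stood at 5.04 log2 CPM in controls after saline, 5.56 in controls after LPS, 4.94 in cKO mice after saline and 5.65 in cKO mice after LPS, the LPS groups above the saline groups. The rise in cKO mice was 0.71 ± 0.17 (FDR = 0.0237), and the value in controls was 0.52 ± 0.14 (FDR = 0.0519) in the authors' deposited tables. Eif5, which makes eIF2 hydrolyse its GTP at the start codon, stood at 7.09, 7.39, 7.08 and 7.47 log2 CPM in the same order of groups. It rose in cKO mice by 0.39 ± 0.09 (FDR = 0.0188), with 0.30 ± 0.11 in controls (FDR = 0.101) in the authors' deposited tables.

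Eif1ax, the X-linked eIF1A gene, stood at 7.72 log2 CPM in controls after saline, 7.48 in controls after LPS, 7.74 in cKO mice after saline and 7.53 in cKO mice after LPS, lower after LPS in both genotypes. It fell by 0.20 ± 0.06 in cKO mice (FDR = 0.0385), with -0.24 ± 0.08 in controls (FDR = 0.0859) in the authors' deposited tables. With the GC and length trend removed the value in cKO mice was -0.00 (adjusted p = 0.976), which ended the call. Its near-identical autosomal copy Eif1a, with which reads may be shared, had 0.01 in both genotypes in the authors' deposited tables. Eif1, which guards start codon choice, had 0.12 ± 0.08 and 0.19 ± 0.08, and its relative Eif1b, singled out after its values were seen, had -0.26 ± 0.07 in controls (FDR = 0.0541) and -0.16 ± 0.09 in cKO mice in the authors' deposited tables. Eif6, which keeps free large subunits from joining, had -0.23 ± 0.08 (FDR = 0.0853) and -0.10 ± 0.08 there, and Eif1ad, which carries an eIF1A domain, had -0.05 ± 0.08 and 0.09 ± 0.07.

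The eIF3 complex, the scaffold of the small subunit, held 14 measured genes. Of these, 1 rose in controls, 3 rose in cKO mice and 0 fell. Over all genes, 6.46% rose in controls and 10.9% in cKO mice. Its subunit Eif3f stood at 5.64 log2 CPM in controls after saline and 5.89 in controls after LPS. In cKO mice Eif3f stood at 5.64 after saline and 6.00 after LPS. The saline groups were level and both LPS groups were higher. It rose by 0.25 ± 0.06 in controls (FDR = 0.0313) and by 0.36 ± 0.06 in cKO mice (FDR = 0.00904) in the authors' deposited tables. Eif3a, the largest subunit of the core, stood at 6.98, 7.39, 6.87 and 7.43 log2 CPM in the same order of groups. Its rise in cKO mice was 0.57 ± 0.11 (FDR = 0.0128), with 0.40 ± 0.14 in controls (FDR = 0.0974) in the authors' deposited tables. Eif3b, the subunit that carries Eif3i and Eif3g, stood at 5.41, 5.73, 5.30 and 5.76 log2 CPM. It had the lowest FDR of all members, with a rise of 0.46 ± 0.08 in cKO mice (FDR = 0.00718) and 0.33 ± 0.11 in controls (FDR = 0.0853) in the authors' deposited tables.

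The partners of these subunits in the same complex did not pass. Eif3c, which pairs with Eif3a in the core, had -0.05 ± 0.08 in controls and 0.02 ± 0.07 in cKO mice, and Eif3i, which sits on Eif3b, had -0.14 ± 0.06 and -0.07 ± 0.07 in the authors' deposited tables. Eif3g, also on Eif3b, had 0.08 ± 0.08 and 0.18 ± 0.07 in the authors' deposited tables. Eif3h, a neighbour of Eif3f, had 0.06 ± 0.07 in controls and 0.17 ± 0.07 in cKO mice there. Eif3m, another neighbour, had -0.19 ± 0.07 in controls and 0.00 ± 0.07 in cKO mice in the authors' deposited tables. Eif3d, Eif3e, Eif3k and Eif3l lay between -0.06 and 0.12 in the authors' deposited tables. Eif3j1 and Eif3j2 are near-identical copies whose reads the counting could split; Eif3j2 had the largest SE of the complex, 0.25 in controls and 0.32 in cKO mice. With the GC and length trend removed, Eif3j1 had 0.29 in cKO mice (adjusted p = 0.0433), beside 0.15 ± 0.08 in the authors' deposited table. The median over the complex was 0.05 in controls and 0.12 in cKO mice, beside 0.00 for all genes.

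Of the 11 genes that bind the cap or unwind the mRNA, 1 rose in controls and none passed in cKO mice. Over all genes, 6.46% rose in controls. Eif4g3, one of the eIF4G scaffolds that bridge the cap and the small subunit, stood at 7.49 log2 CPM in controls after saline, 7.79 in controls after LPS, 7.47 in cKO mice after saline and 7.71 in cKO mice after LPS. The rise in controls was 0.30 ± 0.08 (FDR = 0.0481), with 0.24 ± 0.08 in cKO mice (FDR = 0.0643) in the authors' deposited tables. With the GC and length trend removed, the value in controls was 0.18 (adjusted p = 0.174), which ended the call. Its paralogues Eif4g1 and Eif4g2 had 0.11 ± 0.06 and 0.04 ± 0.08 in controls and 0.01 ± 0.04 and -0.13 ± 0.06 in cKO mice in the authors' deposited tables. The helicases Eif4a1, Eif4a2 and Eif4a3, the last of which works in the exon junction complex, all lay below saline without passing, from -0.20 to -0.12 in controls and from -0.14 to -0.07 in cKO mice in the authors' deposited tables. The helicase helpers Eif4b and Eif4h and the eIF4E relatives Eif4e2 and Eif4e3 ran from -0.14 to 0.26 over both genotypes in the authors' deposited tables, and none passed.

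The cap-binding protein itself, Eif4e, had -0.05 ± 0.08 in controls and 0.06 ± 0.06 in cKO mice in the authors' deposited tables; with the GC and length trend removed the latter was 0.25 (adjusted p = 0.0235). Of its 3 measured repressors, Eif4ebp1, whose protein holds eIF4E until mTORC1 phosphorylates it, rose in cKO mice, where 10.9% of all genes rose. It stood at 1.34 log2 CPM in controls after saline, 1.48 in controls after LPS, 1.11 in cKO mice after saline and 1.78 in cKO mice after LPS. The change was 0.68 ± 0.20 in cKO mice (FDR = 0.0429) and 0.14 ± 0.18 in controls (FDR = 0.642) in the authors' deposited tables. The difference between these responses, 0.53 ± 0.32, did not pass its own test (adjusted p = 0.821). Eif4ebp2, described as the main such protein of the brain, had 0.14 ± 0.07 and 0.02 ± 0.09, and Eif4enif1, which carries eIF4E into the nucleus and to processing bodies, had 0.11 ± 0.07 and 0.10 ± 0.09 in the authors' deposited tables.

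**Figure D4:**
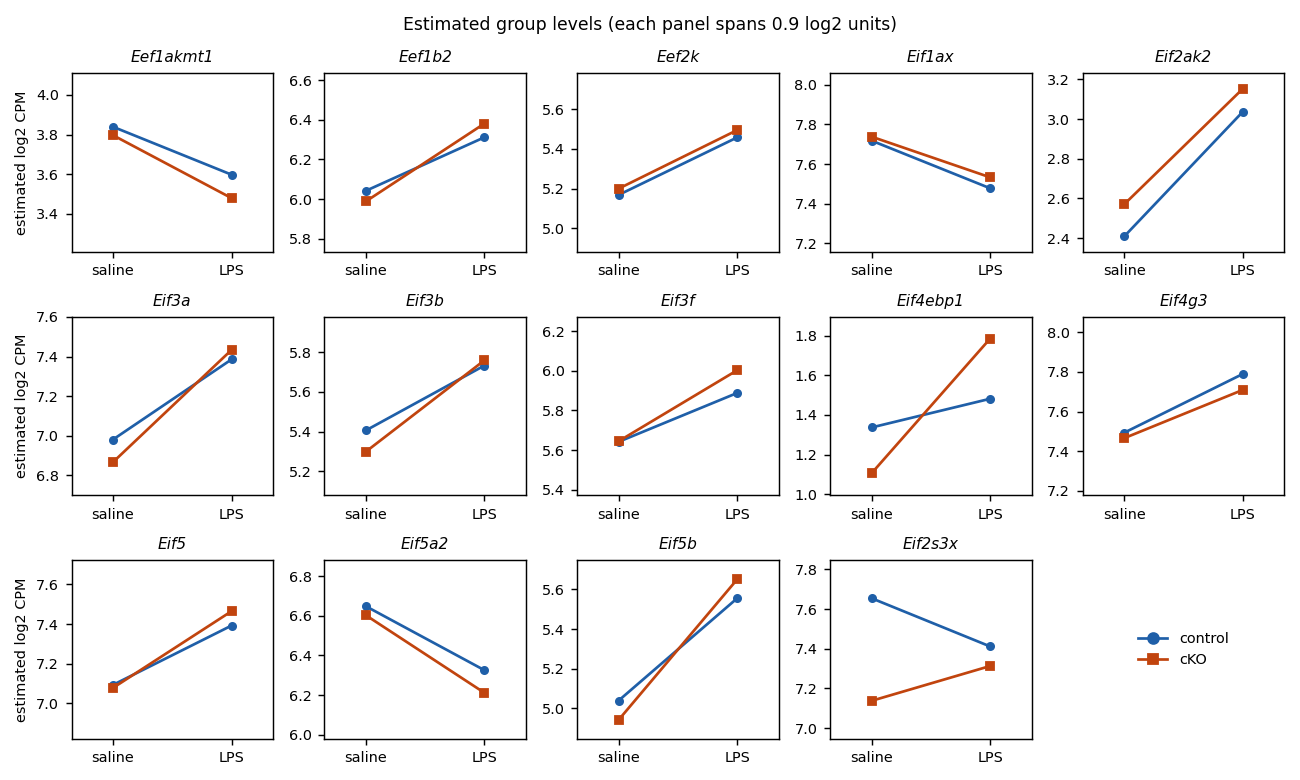
Estimated log2 CPM (vertical axis, each panel spanning the same range) after saline and LPS in controls (blue circles) and cKO mice (orange squares) for the 13 members called in either LPS comparison and for Eif2s3x. Lines join the saline and LPS estimates of a genotype and carry no error; the lines run nearly parallel in most panels, and those of Eif2s3x slope in opposite directions.

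The core of elongation did not pass in either genotype. Eef1a1 and Eef1a2, the widely expressed and the neuron and muscle forms of the factor that delivers aminoacyl-tRNA, had -0.03 ± 0.06 and 0.01 ± 0.06 in controls and -0.02 ± 0.09 and -0.03 ± 0.07 in cKO mice in the authors' deposited tables. The 95% interval for Eef1a2 ran from -0.11 to 0.14 in controls and from -0.19 to 0.14 in cKO mice. Eef2, the translocase, had -0.06 ± 0.05 and 0.03 ± 0.06, with intervals of -0.18 to 0.06 and -0.10 to 0.17. Of the genes for the complex that recharges eEF1A with GTP, Eef1d and Eef1g lay between -0.07 and -0.01 in the authors' deposited tables. Its exchange subunit Eef1b2 stood at 6.04 log2 CPM in controls after saline, 6.31 in controls after LPS, 5.99 in cKO mice after saline and 6.38 in cKO mice after LPS. Eef1b2 rose in cKO mice by 0.39 ± 0.07 (FDR = 0.00755), with 0.27 ± 0.09 in controls (FDR = 0.0884) in the authors' deposited tables.

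Eif5a and Eif5a2 encode the forms of eIF5A, the factor that carries hypusine and helps the ribosome past stretches such as runs of proline. Eif5a2 stood at 6.65 log2 CPM in controls after saline, 6.33 in controls after LPS, 6.60 in cKO mice after saline and 6.21 in cKO mice after LPS, with both LPS groups below both saline groups. It fell by 0.39 ± 0.07 in cKO mice (FDR = 0.01), with -0.32 ± 0.09 in controls (FDR = 0.0513) in the authors' deposited tables. With the GC and length trend removed the value in cKO mice was -0.17 (adjusted p = 0.136), which ended the call. Eif5a had 0.07 ± 0.05 and -0.03 ± 0.06 in the authors' deposited tables. The 3 members that fell in cKO mice had a median transcript GC content of 39.7% (Eif5a2 38.8%, Eif1ax 39.7%, Eef1akmt1 51.5%). The median was 46.2% for the members that rose, 50.6% for those not called and 49.9% for all genes. Across the 64 members, GC content and the log2 fold change in cKO mice had Pearson's r = -0.02 (0.22 across all genes).

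Among the 5 measured enzymes that act on elongation factors, Eef2k rose and Eef1akmt1 fell in cKO mice. Of all genes 10.9% rose and 8.52% fell there. Eef2k, the calcium-dependent kinase that inhibits eEF2, stood at 5.17 log2 CPM in controls after saline, 5.46 in controls after LPS, 5.20 in cKO mice after saline and 5.49 in cKO mice after LPS. The rise was 0.30 ± 0.08 in cKO mice (FDR = 0.0262), beside 0.29 ± 0.08 in controls (FDR = 0.0535) in the authors' deposited tables, so nearly equal values fell on either side of the threshold. Eef1akmt1, a lysine methyltransferase of eEF1A, stood at 3.84, 3.60, 3.80 and 3.48 log2 CPM in the same order of groups. It fell by 0.32 ± 0.09 in cKO mice (FDR = 0.0353), with -0.24 ± 0.09 in controls (FDR = 0.107) in the authors' deposited tables. The other methyltransferases of eEF1A, Eef1akmt2 and Eef1aknmt, lay between -0.12 and -0.07, and Eef2kmt, which methylates eEF2, had 0.46 ± 0.28 and 0.57 ± 0.18 (FDR = 0.0538 in cKO mice) in the authors' deposited tables; these were named after their values were seen.

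Loss of Chd8 from astrocytes was not followed by a call in any of the 64 genes after LPS. In this comparison 0 members and 0.00725% of all genes (1 gene) passed in the authors' deposited table (edgeR is named in the submitters' processing notes), and 3 members (4.69%) had an unadjusted p below 0.05, against 12.3% of all genes. The median over the members was 0.06, with 42 of 64 above 0, beside a median of 0.00 for all genes. The lowest FDR was that of Eif3m, which was higher in cKO mice by 0.23 ± 0.06 (FDR = 0.282), with a 95% interval of 0.09 to 0.37, in the authors' deposited table. Point estimates were within 0.25 in size for 63 of the 64 genes, or 98.4%, against 81.8% of all genes. The exception was Eif4ebp1, at 0.39 ± 0.24 (FDR = 0.537), with an interval of -0.16 to 0.94 in the authors' deposited table. For the genes that rose in both genotypes after LPS, the difference was 0.09 ± 0.21 for Eif2ak2, with an interval of -0.39 to 0.58, and 0.13 ± 0.07 for Eif3f, with an interval of -0.02 to 0.29, in the authors' deposited table. These intervals give the range of differences compatible with the data for each gene alone. They are not adjusted over the genes, whereas the FDR is.

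The test of the difference between the genotypes' LPS responses likewise called 0 members, against 0.00725% of all genes. At an unadjusted p below 0.05 it called 1 member, Eef1e1, which encodes a scaffold protein of the multi-tRNA synthetase complex (adjusted p = 0.713). That is 1.56% of the members, against 6.52% of all genes. With standard errors taken from F, 0 members and 103 of all genes had an adjusted p below 0.05. Eef1e1, singled out by this value, had 0.12 ± 0.10 in controls and -0.22 ± 0.10 in cKO mice in the authors' deposited tables. The differences for Eif5b and Eif3a, which had larger estimates in cKO mice, were 0.19 ± 0.30 and 0.16 ± 0.24, both within their error. Although 12 members were called in cKO mice and 3 in controls, a difference in response was not shown for any member. On artificial tables with 200 changed genes, this test recovered 29.6% of true log2 differences of 0.5. The absence of calls therefore says little about differences of that size or smaller.

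**Figure D5:**
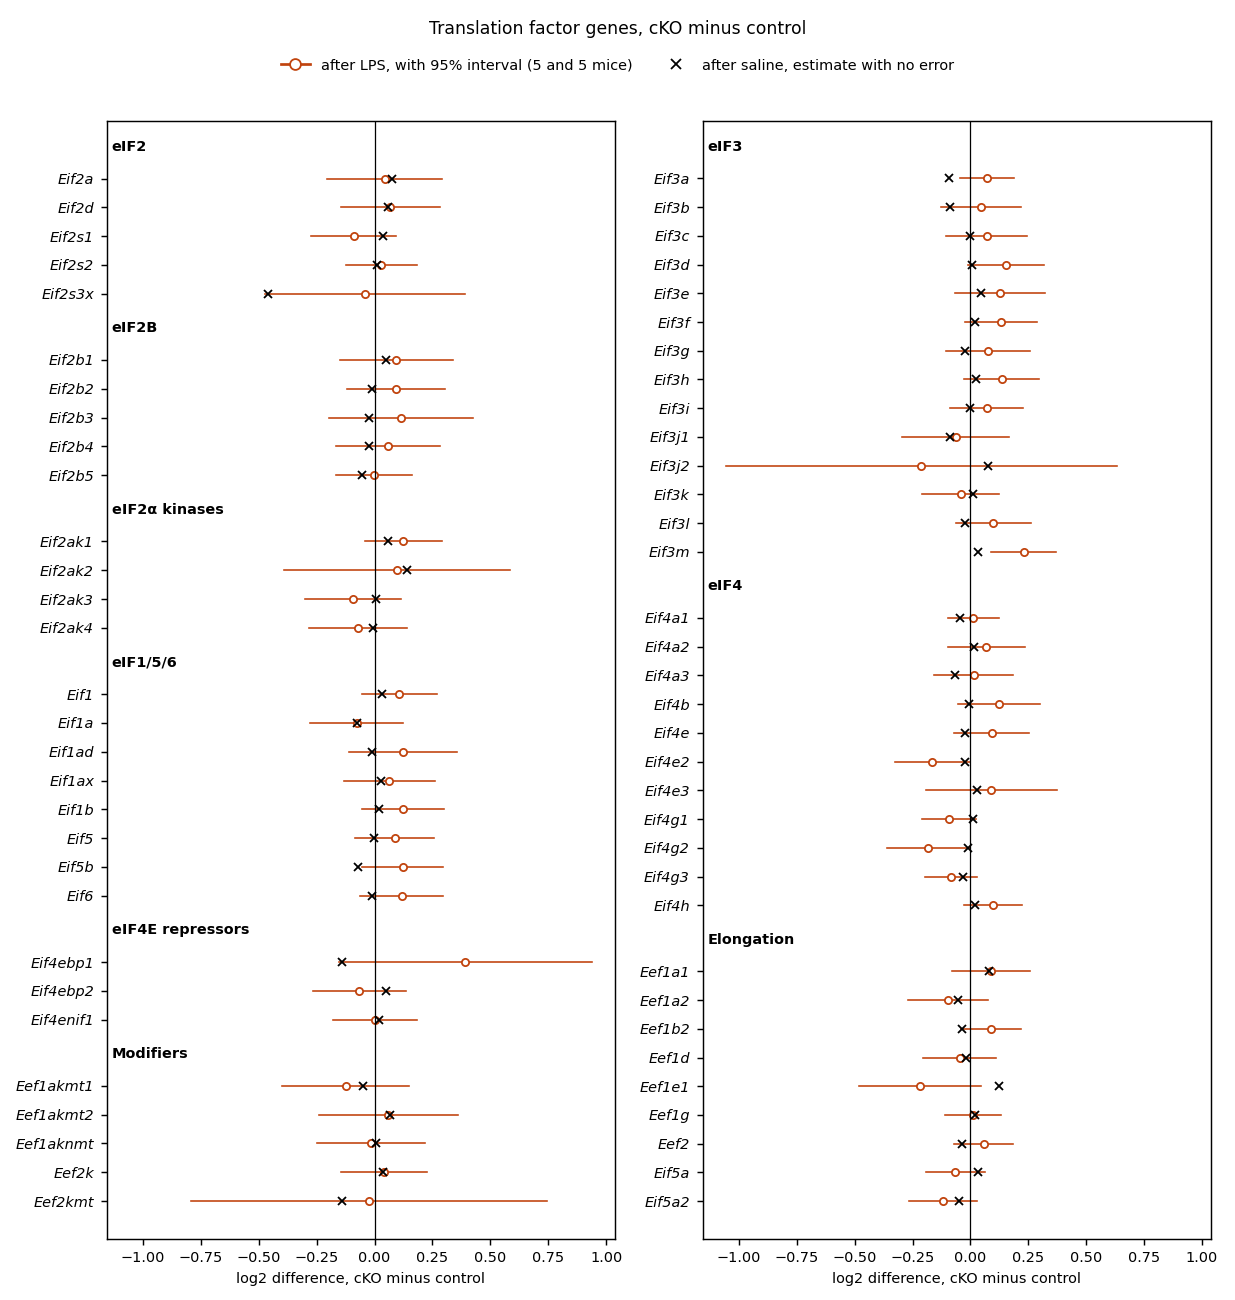
Log2 difference of cKO minus control mice (horizontal axis) for the 64 genes by role, after LPS (open circles with 95% intervals, 5 mice a group) and after saline (crosses, estimates with no error). No circle passed in the authors' deposited table; Eif3m lies at 0.23, and the cross of Eif2s3x, at -0.46, stands apart from the other 63.

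Genes that work with these factors were listed by pathway and counted in the same way. The shares of all genes to set beside each list were 6.46% rising and 3.31% falling in controls. In cKO mice they were 10.9% and 8.52%. Of 11 measured targets and effectors of the integrated stress response, which follows eIF2 phosphorylation, 0 passed in controls, and 1 rose and 1 fell in cKO mice. Those were the subunits that guide the eIF2 phosphatase, the stress-induced Ppp1r15a at 0.41 ± 0.09 (FDR = 0.0187) and the constitutive Ppp1r15b at -0.18 ± 0.05 (FDR = 0.0449) in the authors' deposited table. In controls Ppp1r15a had 0.28 (FDR = 0.326) and Ppp1r15b -0.15 (FDR = 0.178) in the authors' deposited table. The lowest p-values in controls were those of Ddit3 (CHOP), at 0.26 ± 0.10, and Asns, at -0.31 ± 0.14, with FDR of 0.126 and 0.166 in the authors' deposited table. The central factor Atf4 had -0.14 ± 0.19 and -0.04 ± 0.16, and the list's medians were -0.14 in controls and 0.23 in cKO mice. Of 20 measured cytosolic aminoacyl-tRNA synthetases, many of which ATF4 is known to induce, 0 passed in controls and 1 rose in cKO mice, Vars at 0.30 ± 0.07 (FDR = 0.0215), in the authors' deposited tables. In controls their lowest FDRs were 0.0646 for Vars, at 0.25 ± 0.07, and 0.0723 for Dars, at -0.19 ± 0.06, in the authors' deposited table.

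Of 16 genes of mTORC1 and its regulators, the kinase complex that frees eIF4E, 1 rose in controls and 2 in cKO mice. Larp1, which binds mRNAs with terminal oligopyrimidine tracts, rose by 0.24 ± 0.06 in controls (FDR = 0.0429). Its value in cKO mice was 0.18 ± 0.06 (FDR = 0.0534). In cKO mice the S6 kinase gene Rps6kb2 rose by 0.44 ± 0.07 (FDR = 0.00718) and the inhibitor Tsc2 by 0.27 ± 0.08 (FDR = 0.0359). In controls Rps6kb2 had 0.28 (FDR = 0.0779) and Tsc2 0.28 (FDR = 0.13), in the authors' deposited tables. Of 12 poly(A)-binding and cap-complex partners, 2 rose in controls, and 3 rose and 1 fell in cKO mice. Pabpc1, the poly(A)-binding protein that meets eIF4G, rose by 0.52 ± 0.10 in controls (FDR = 0.0154) and 0.38 ± 0.11 in cKO mice (FDR = 0.0453), and Cyfip2, a relative of the FMRP partner that binds eIF4E, by 0.30 ± 0.07 (FDR = 0.0379) and 0.33 ± 0.08 (FDR = 0.0238) in the authors' deposited tables. In cKO mice the eIF4A inhibitor Pdcd4 rose by 0.48 ± 0.10 (FDR = 0.0141) and the PABP partner Paip1 fell by 0.30 ± 0.07 (FDR = 0.0192) in the authors' deposited table. In controls Pdcd4 had 0.29 (FDR = 0.182) and Paip1 -0.24 (FDR = 0.0949) in the authors' deposited table.

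Of 8 termination and recycling factors, 0 passed in controls and 1 rose in cKO mice, the recycling factor Denr at 0.25 ± 0.08 (FDR = 0.0478) in the authors' deposited table. Denr had 0.10 in controls (FDR = 0.373) in the authors' deposited table. Etf1, the release factor, had -0.23 ± 0.07 in controls (FDR = 0.0694), and Abce1, the recycling ATPase, had -0.14 ± 0.07 (FDR = 0.216) in the authors' deposited table. Among 9 rows for enzymes that make hypusine on eIF5A or diphthamide on eEF2, 1 of the rows named Dohh fell in controls, by 0.34 ± 0.09 (FDR = 0.0436), and Dph3 in cKO mice, by 0.25 ± 0.07 with an FDR of 0.032, in the authors' deposited tables. That Dohh row had -0.12 in cKO mice (FDR = 0.481) and Dph3 -0.19 in controls (FDR = 0.152) in the authors' deposited tables. Of 9 mitochondrial translation factors 1 fell in controls, the initiation factor Mtif3 by 0.35 ± 0.08 (FDR = 0.0348), and 0 passed in cKO mice, where Mtif3 had -0.27 ± 0.08 (FDR = 0.0521) and the recycling factor Gfm2 -0.16 ± 0.07 (FDR = 0.124) in the authors' deposited tables. No gene of these 7 lists passed between genotypes after LPS.

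Cell type markers moved in the same comparisons. Over all genes, 6.46% rose and 3.31% fell in controls, and 10.9% rose and 8.52% fell in cKO mice. After LPS, 6 of 8 microglial markers rose in controls (median 0.73), and 4 rose and 1 fell in cKO mice (median 0.42), while 5 of 6 endothelial markers rose in both genotypes (medians 0.98 and 0.75). All 7 astrocyte markers and all 6 excitatory neuron markers of the list were measured. Of the astrocyte markers 1 rose (Gfap) and 1 fell (Aqp4) in controls. In cKO mice 4 fell (Aqp4, Slc1a2, Slc1a3 and S100b) and 3 lay above 0 without passing. Those 3 were Gfap at 1.06 ± 0.34 (FDR = 0.0548), Gja1 at 0.26 and Aldh1l1 at 0.14 in the authors' deposited table. Excitatory neuron markers rose in 2 of 6 cases in each genotype, inhibitory neuron markers in 0 and 2 of 5, and oligodendrocyte markers in 0 of 5 in both. Markers of striatum, a neighbouring region, rose in 0 of 5 cases in controls and 2 of 5 in cKO mice, and their median difference between genotypes after LPS was 0.63, with 0 of 5 passing. Of 4 choroid plexus markers 2 were measured, and Ttr had -4.03 ± 1.96 in controls (FDR = 0.206) in the authors' deposited table. The part of these cell types, of dissection and of sex in the values of the translation factors was not tested.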

How the data were processed

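Cortical RNA libraries of 18 mice were prepared with a stranded kit after ribosomal RNA depletion, per the labels' protocols. The submitters' processing notes name cutadapt 3.5, STAR, RSEM and edgeR 3.30.3 (used by the authors) and build GRCm39, with no role or order. The filter on genes: not given in the sources used here. Each table that the authors deposited lists, per the file headers, the log2 fold change, the mean log2 CPM, F (a score with no fixed range), the p-value and the FDR of every gene. All 64 members had a mean log2 CPM of at least 1 in all tables; the lowest estimated group levels were 0.81 and 0.97 (Eef2kmt after saline in cKO mice and controls). A further 7 symbols written in the member lists had no row and were not analysed here.

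The headers do not state directions. Group levels were worked out from the fold change, the mean log2 CPM and group sizes, assuming libraries of equal weight; with changes read as LPS minus saline and cKO minus control, a group's levels from 2 tables differed over genes by an SD of 0.0537 (control LPS) and 0.0503 (cKO LPS), and by 0.222 or more in at least 1 group with any sign turned. The SE is the absolute log2 fold change over the root of F. Intervals at 95% use the denominator degrees of freedom that F and p imply (9.85 for LPS in controls, 9.76 for LPS in cKO, 8.66 for genotype after LPS). The difference between LPS responses was divided by an SE taken from the normal quantiles of the deposited p-values with Benjamini-Hochberg adjustment across the 13784 genes; the script was tested on artificial tables. GC content and length came from the longest coding transcript of 13730 genes (99.6%), all 64 members included. Whether mice of a group came from separate litters is not stated.

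Members, lists and tests were chosen with earlier results of these data known. Named genes are members called in any comparison, a fixed set of central factors, and up to 4 called genes of each companion list, or the 2 of smallest p; exceptions are named as such. Alternatives were other FDR thresholds, a minimum mean level, median centring, removal of the GC and length trend, leaving out the sex-linked Eif2s3x and, for the difference test, SE from F. Computing used Python 3.11.15, pandas 2.3.3 and scipy 1.17.1.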

Additional observations from a re-analysis of the deposited data

How the results depend on the processing

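At an FDR threshold of 0.01, 0 members (228 of all 13784 genes) rose and 0 (36) fell in controls, and 3 (274) rose and 0 (171) fell in cKO mice. At a threshold of 0.1, 8 (1556) rose and 5 (1001) fell in controls, and 13 (2235) rose and 5 (1857) fell in cKO mice. The members' share of calls lay above that of all genes at 0.01 in cKO mice and at 0.1 in controls. Removing the GC and length trend left 2 rises in controls and gave 12 rises and 2 falls in cKO mice; of 150 gene-level results 143 kept their side of the threshold, 4 gained a call (Eif2ak3, Eif2s2, Eif3j1 and Eif4e in cKO mice), 3 lost it (Eif1ax and Eif5a2 in cKO mice, Eif4g3 in controls) and none reversed; the cause was not tested. A minimum mean level, median centring and leaving out Eif2s3x changed no count of members. These settings had little room to change it. All 64 members met the minimum, the medians of all genes lay between -0.003 and 0.002, and Eif2s3x was not called. Counts over all genes did move, as from 1506 rises in cKO mice to 1467 with the minimum and 1526 with centring. The counts of 0 members between genotypes and in the difference of responses held under each alternative run. No paired analysis was possible because the deposited tables hold comparisons and no values per library, and for the same reason no replicate could be left out, another normalization could not be run and the depth that limits these values is unknown.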
